A study of Schmidtea mediterranea with 14 samples.

Results

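Gene expression in planarians with the mild form of the *apob* RNAi phenotype was compared with that in control animals of the same experiment. The comparison covered the 4 libraries labelled *apob-M* and the 6 control libraries, 10 of the 14 libraries in the series, taken by their group labels. The other 4 libraries, *apob-S*, came from severely affected animals and were used only for the shared estimate of spread and for a direct comparison at the end. All animals were uninjured, whole *Schmidtea mediterranea* of the clonal asexual line CIW4, fed dsRNA 3 times and starved for 7 days before RNA was taken. The labels give 2 µg of dsRNA for every library. The *apob-M* and *apob-S* animals ate dsRNA against both *apob-1* and *apob-2*, and control animals ate dsRNA against *egfp*, a jellyfish gene that planarians lack. Knockdown animals were sorted by phenotype. Mild animals had lost some pigment or lost it in places, and severe animals had lost it throughout and moved less. The 2 groups were thus not assigned at random. The depth of knockdown and the time course of the phenotype in single animals are not known. Each library was made from a pool of 5 to 6 whole animals.

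Apolipoprotein B is the large structural protein around which lipoprotein particles are built. In vertebrates it is made in the intestine and the liver, where microsomal triglyceride transfer protein loads it with triglyceride, cholesteryl ester and phospholipid as it enters the endoplasmic reticulum (ER). The particles are then secreted, carry lipid to other tissues, and are taken up by receptors of the low-density lipoprotein (LDL) receptor family. Planarians hold lipid stores in a branched intestine, and every other tissue, including the dividing stem cells called neoblasts, needs lipid delivered from there or made locally.

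The 2 knocked-down genes are shown by the stretches of their clones that the dsRNA was made from, because they identify what was targeted. The first 180 bases of each clone insert are given 5′ to 3′ in lower case. In the part of each clone held here (399 bases), the frame that starts at base 3 runs for 396 bases, to base 398, without a stop codon. No genome coordinates were assigned.
apob-1: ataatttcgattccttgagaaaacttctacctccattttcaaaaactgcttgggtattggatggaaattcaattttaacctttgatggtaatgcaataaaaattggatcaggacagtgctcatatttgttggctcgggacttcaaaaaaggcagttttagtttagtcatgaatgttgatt
apob-2: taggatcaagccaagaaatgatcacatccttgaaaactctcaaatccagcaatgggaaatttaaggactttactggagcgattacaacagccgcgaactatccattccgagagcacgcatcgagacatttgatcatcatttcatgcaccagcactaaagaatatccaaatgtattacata

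Both targets were lower in every *apob-M* library, which checks the labels. Abundance is given as counts scaled to a fixed library total (CPM) after TMM scaling, a correction of library size by a trimmed mean of log ratios between libraries. The *apob-1* transcript (dd_Smed_v6_636_0_1) lay between 1229 and 1702 CPM (median 1338) in control libraries and at 257, 302, 283 and 226 CPM in *apob-M* libraries 1 to 4. The highest *apob-M* value was far under the lowest control value, and the fall was 5.30-fold (log2 fold change -2.41 ± 0.11, adjusted p = 1.9e-11 by edgeR's quasi-likelihood test with Benjamini-Hochberg adjustment over all transcripts tested). The *apob-2* transcript (dd_Smed_v6_194_0_1) lay between 980.0 and 1625 CPM (median 1059) in control libraries and at 369, 568, 430.3 and 389.6 CPM in *apob-M* libraries. These groups did not overlap either, but control libraries spread more widely than for *apob-1*, and the fall was 2.70-fold (-1.43 ± 0.18, adjusted p = 1.9e-05). For each target, an exact two-sided permutation test of log2 CPM over the 6 and 4 libraries gave p = 0.00476, the smallest that this design allows. The severe animals held 241–327 CPM of *apob-1* and 245–476 CPM of *apob-2*. The direct comparison of *apob-S* with *apob-M* gave log2 differences of 0.11 ± 0.11, adjusted p = 0.59, for *apob-1* and -0.23 ± 0.19, adjusted p = 0.52, for *apob-2*, and neither difference passed the test.

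Beyond the targets, many transcripts moved by small amounts. Of 18436 transcripts that reached 1 CPM in 4 or more of the 14 libraries, 1299 were higher in *apob-M* (7.05%) and 1520 were lower (8.24%) at an adjusted p under 0.05. The median size of a called change was 0.26 on the log2 scale, 1.20-fold, with quartiles of 0.19 and 0.40. Changes of at least 2-fold were few: 35 transcripts higher and 44 lower, 79 in all or 0.429% of those tested. At an unadjusted p under 0.05, 27.9% of transcripts passed. The 6 control and 4 *apob-M* libraries did not overlap for 1990 of the 2819 called transcripts, and for 12.5% of all transcripts tested. The higher transcripts together took 12.2% to 12.6% of CPM in control libraries and 13.9% to 15.5% in *apob-M*. The lower transcripts took 25.5% to 27.8% in control libraries and 20.2% to 22.9% in *apob-M*, so the group that fell was the more abundant one. Both low ends in *apob-M* were those of library 3, in which 1 transcript described below, dd_Smed_v6_4_1_1, was very abundant. The other *apob-M* libraries held 15.2% to 15.5% and 22.7% to 22.9%. In control, the low ends were those of libraries 2 and 1, also high in that transcript. Being called went with abundance: of 4609 transcripts each, 2.86% of the least abundant and 31.4% of the most abundant passed. RNA came from whole animals, so fewer cells of a type and less RNA per cell cannot be told apart in any of these values.

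**Figure D1:**
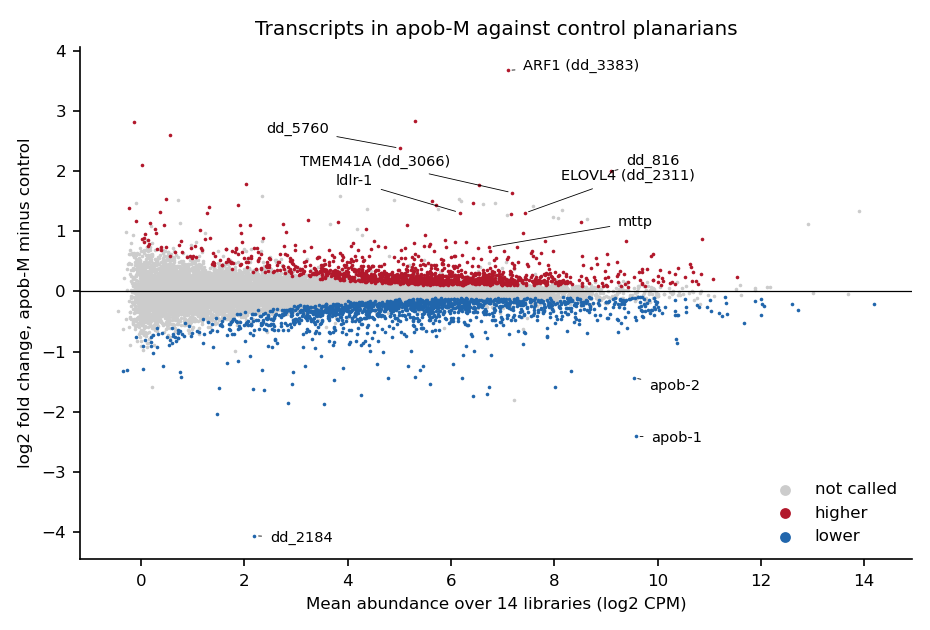
Log2 fold change of each of 18436 transcripts in *apob-M* minus control (vertical axis) against mean abundance in log2 CPM over 14 libraries (horizontal axis), with the 1299 called higher in red and the 1520 called lower in blue. Most called points lie close to 0, and labelled transcripts, among them dd_Smed_v6_3383_0_1 at 3.68 and *apob-1* at -2.41, stand far from the rest.

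The called transcripts were chosen with these same 4 *apob-M* libraries, so their levels by library are a description. The median deviation from the control mean of the higher transcripts was 0.23, 0.24, 0.25 and 0.24 on the log2 scale in *apob-M* libraries 1 to 4, and that of the lower transcripts was -0.29, -0.26, -0.30 and -0.26. Total counts ran from 17476691 to 23039326 in control libraries and from 18285522 to 22070116 in *apob-M*, and TMM factors from 0.981 to 1.01 and from 0.919 to 1.04. In counts, *apob-M* library 3 stood apart from the other 3 (chi-square per degree of freedom 104 to 139 against it, and 6.52 to 10.9 among them). The lowest factor also belonged to *apob-M* library 3, in which 1 transcript without a name in the tables used, dd_Smed_v6_4_1_1, reached 79387 CPM against 448 to 4875 CPM in the other *apob-M* libraries. Control libraries 1 and 2 also held it at 24509 and 20906 CPM against 1083 to 1818 CPM in control libraries 3 to 6. It was not called (log2 fold change 1.33 ± 1.22, adjusted p = 0.53), and 18 other transcripts followed it across the 10 libraries with a Pearson r of at least 0.9. With its log2 CPM as a covariate, 1278 transcripts were higher and 1512 lower.

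The partners of ApoB in lipoprotein assembly and uptake moved in different directions. The planarian *mttp*, which encodes the transfer protein that lipidates ApoB, lay between 68.6 and 72.1 CPM (median 70.1) in control libraries and at 121, 119, 115 and 113 CPM in *apob-M*. Every *apob-M* library was above every control library, with a spread of a few CPM in each group, and the rise was 1.67-fold (0.74 ± 0.03, adjusted p = 3.8e-11). The LDL receptor homologue *ldlr-1* (dd_Smed_v6_9829_0_1) lay between 31.2 and 37.2 CPM (median 33.1) in control libraries and at 90.2, 77.7, 86.3 and 78.1 CPM in *apob-M*, a rise of 2.48-fold (1.31 ± 0.05, adjusted p = 3.4e-12). It was the largest change among the 3 receptors. A second homologue, *ldlr-2*, rose slightly, from 114 ± 3.58 CPM (SD, n = 6) to 126 ± 5.46 CPM (SD, n = 4), a log2 fold change of 0.15 ± 0.04, adjusted p = 0.015, and lost its call by the edgeR exact test (adjusted p = 0.12 there). The very-low-density lipoprotein receptor homologue *vldlr-1* fell from 273 ± 8.47 CPM to 241 ± 3.19 CPM, a log2 fold change of -0.18 ± 0.03, adjusted p = 8.0e-04, with an adjusted p of 0.062 by the exact test. None of the 4 transcripts overlapped between the 2 groups, against 12.5% of all transcripts that did not.

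**Figure D2:**
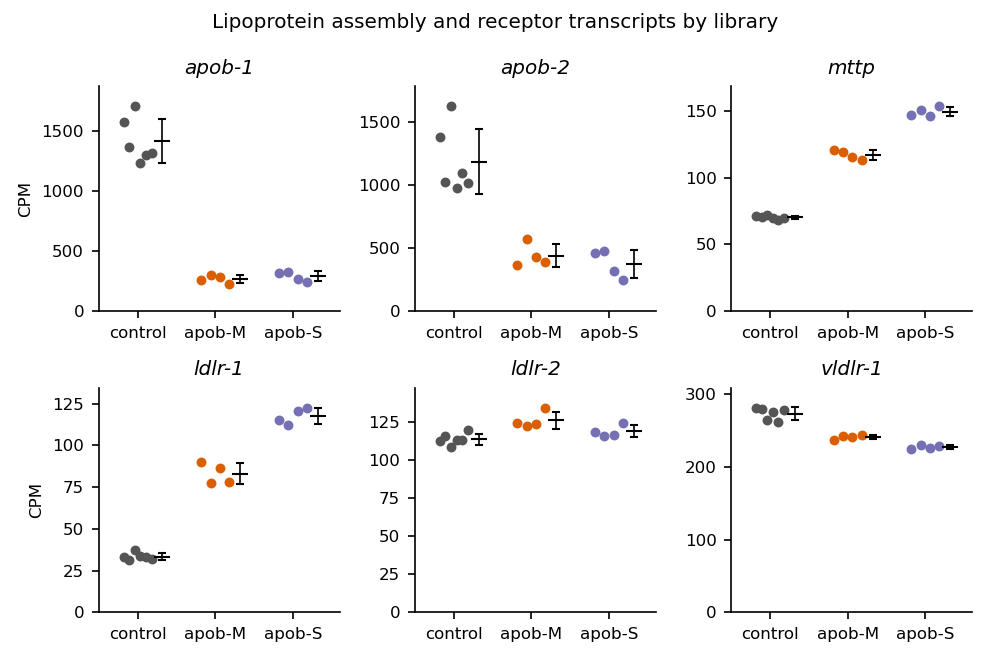
Abundance in CPM (vertical axes, from 0) of 6 transcripts in each control, *apob-M* and *apob-S* library, in replicate order from left to right, with the mean and SD of each group beside the points. The targets *apob-1* and *apob-2* are low in both knockdown groups, *mttp* and *ldlr-1* are higher in *apob-M* than in control and higher again in *apob-S*, and *ldlr-2* and *vldlr-1* shift little.

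The largest rises included transcripts tied to the secretory pathway and to lipid metabolism. Names from here on are those of the best human protein hit at an e-value of at most 1e-10 in the annotation tables held. These tables cover part of the transcriptome, so families are incomplete, and a hit is not a proof of orthology. They include the study's own list of transcripts changed by *apob* RNAi in these libraries, so a transcript could get a name because it had changed. Of 1641 tested transcripts with a hit, 22.5% were called, against 15.3% of all transcripts. Called shares of lists built from such names are therefore not comparable on equal terms with those of all transcripts. A transcript with ARF1 as its hit (dd_Smed_v6_3383_0_1), a small GTPase that recruits coat proteins to Golgi membranes and acts at lipid droplets in other animals, lay between 17.9 and 24.7 CPM (median 20.5) in control libraries and at 211, 279, 288 and 301 CPM in *apob-M*. The rise was 12.8-fold (3.68 ± 0.09, adjusted p = 3.7e-15), the largest among the transcripts eligible to be named. A TMEM41A hit (dd_Smed_v6_3066_0_1), of a family of ER membrane proteins, lay between 59.1 and 67.8 CPM (median 63.5) in control libraries and at 195, 193, 207 and 198 CPM in *apob-M*, a rise of 3.12-fold (1.64 ± 0.05, adjusted p = 1.4e-13). The transcript dd_Smed_v6_816_0_1, which has no human hit in these tables but carries the study's term for lipid biosynthesis, was the most abundant of the strong risers. It lay between 158 and 189.8 CPM (median 174.8) in control libraries and at 748, 628, 738 and 661 CPM in *apob-M*, a rise of 3.99-fold (2.00 ± 0.06, adjusted p = 7.7e-14). Large changes were named only where the control and *apob-M* libraries did not overlap, so the separation of these 3 transcripts follows from that rule.

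Other large rises had no human hit in the annotation tables held. dd_Smed_v6_5760_0_1 went from 8.02–9.74 CPM to 44.9–49.4 CPM (2.38 ± 0.06, adjusted p = 3.7e-15), dd_Smed_v6_8670_0_1 from 33.8–44.5 CPM to 96.0–116 CPM (1.47 ± 0.07, adjusted p = 1.9e-11), and dd_Smed_v6_585_0_1 from 13.8–22.0 CPM to 40.9–62.2 CPM (1.44 ± 0.12, adjusted p = 9.1e-08). dd_Smed_v6_18454_0_1 was scarce in all libraries, at 0.702–1.35 CPM in control and 3.47–4.77 CPM in *apob-M* (1.78 ± 0.18, adjusted p = 1.3e-06). dd_Smed_v6_3606_0_1 varied most among the mild libraries, at 22.7, 10.7, 15.2 and 16.6 CPM, over a control range of 3.61–9.00 CPM (1.502 ± 0.26, adjusted p = 4.0e-04). Among the transcripts with a hit, thymidine phosphorylase (TYMP, dd_Smed_v6_869_0_1), an enzyme of pyrimidine nucleoside breakdown, rose from 199–234 CPM to 440.4–498 CPM (1.15 ± 0.04, adjusted p = 2.2e-12), and a TMEM56 hit (dd_Smed_v6_10262_0_1) from 10.6–12.4 CPM to 21.0–24.3 CPM (1.03 ± 0.06, adjusted p = 4.4e-10).

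The largest falls beside *apob-1* were mostly in transcripts without a human hit in the annotation tables held. dd_Smed_v6_356_0_1 and dd_Smed_v6_851_0_1 were the abundant ones. dd_Smed_v6_356_0_1 went from 134–209 CPM in control to 44.96–68.9 CPM in *apob-M* (-1.70 ± 0.14, adjusted p = 1.2e-07), and dd_Smed_v6_851_0_1 from 104–168 CPM to 34.5–61.3 CPM (-1.74 ± 0.17, adjusted p = 6.4e-07). In both, *apob-M* library 2 was the highest of the 4, as it was for *apob-2*. dd_Smed_v6_557_0_1 fell from 26.6–39.5 CPM to 7.05–13.9 CPM (-1.73 ± 0.15, adjusted p = 1.4e-07), dd_Smed_v6_1616_0_1 from 14.7–22.98 CPM to 4.25–6.36 CPM (-1.87 ± 0.12, adjusted p = 4.8e-09), and dd_Smed_v6_5690_0_1 from 7.64–9.82 CPM to 1.85–3.10 CPM (-1.63 ± 0.17, adjusted p = 1.8e-06). The most negative fold change was that of dd_Smed_v6_2184_0_1, at between 1.87 and 11.5 CPM (median 3.29) in control libraries and 0.473, 0.0935, 0.0988 and 0.528 CPM in *apob-M*. Its SE was the widest of the named transcripts (-4.06 ± 0.75, adjusted p = 9.3e-04), and the *apob-M* values rest on low counts.

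Falls with a human hit were smaller. CAV3 (dd_Smed_v6_1086_0_1), a caveolin that shapes cholesterol-rich membrane pits in vertebrate muscle, lay between 66.8 and 79.8 CPM (median 77.1) in control libraries and at 36.4, 51.2, 42.0 and 50.5 CPM in *apob-M* (-0.74 ± 0.10, adjusted p = 2.7e-05). A phospholipid scramblase (PLSCR1, dd_Smed_v6_11132_0_1) fell from 4.86–6.57 CPM to 2.72–4.39 CPM (-0.69 ± 0.13, adjusted p = 0.0013). A peptidase inhibitor (PI15, dd_Smed_v6_14382_0_1) fell from 50.0–78.8 CPM to 42.1–44.6 CPM (-0.63 ± 0.09, adjusted p = 7.0e-05), and its *apob-M* libraries lay much closer together than its control libraries. CBFB (dd_Smed_v6_2875_0_1), the partner subunit of Runt-family transcription factors in other animals, fell from 27.8–31.5 CPM to 18.1–23.4 CPM (-0.56 ± 0.06, adjusted p = 3.1e-06).

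Transcripts for making and lengthening fatty acids were more often higher than lower. Of 17 transcripts tested, 6 were higher (35.3%) and 3 were lower (17.6%), against 7.05% and 8.24% of all transcripts. Of the 1641 tested transcripts with a human hit, 229 were higher and 140 were lower (22.5% in all). ELOVL4 (dd_Smed_v6_2311_0_1), an elongase of very long chain fatty acids, lay between 80.1 and 110.3 CPM (median 99.9) in control libraries and at 233, 224, 222 and 272 CPM in *apob-M*, a rise of 2.47-fold (1.30 ± 0.08, adjusted p = 3.9e-09). Acetyl-CoA carboxylase (ACACA), which makes the building block for fatty acid synthesis, had 2 transcripts that rose, dd_Smed_v6_7823_2_1 from 55.1–67.2 CPM to 90.3–98.5 CPM (0.56 ± 0.05, adjusted p = 1.6e-07) and dd_Smed_v6_7598_0_1 from 107–114 CPM to 126–136 CPM (0.25 ± 0.04, adjusted p = 7.1e-05). The mitochondrial citrate carrier SLC25A1 (dd_Smed_v6_8165_0_1), which supplies citrate for cytosolic acetyl-CoA, rose by 0.55 ± 0.08 on the log2 scale (adjusted p = 5.2e-05). FAR1, a fatty acyl-CoA reductase, was higher by 0.30 and ACSBG2, an acyl-CoA synthetase, by 0.19. The list was not uniform, since 2 transcripts with the carbonyl reductase CBR4 as hit were lower (-0.45 and -0.49) and a second ELOVL4 transcript, dd_Smed_v6_1977_0_1, was slightly lower (-0.13). The list median was 0.08 on the log2 scale, beside -0.0025 over all transcripts.

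Among sterol genes, the largest rise was in a regulator. SREBF2 (dd_Smed_v6_3641_0_1), the sterol-sensing transcription factor that turns on cholesterol synthesis and LDL receptor genes in vertebrates, lay between 108 and 115 CPM (median 111.2) in control libraries and at 192, 183, 187 and 178 CPM in *apob-M*. The groups lay far apart, and the rise was 1.66-fold (0.73 ± 0.04, adjusted p = 1.0e-10). Of 15 transcripts tested in the sterol list, 3 were higher (20%) and 3 were lower (20%). Over all transcripts 7.05% were higher and 8.24% lower, and of 1641 tested transcripts with a human hit, 229 and 140. The higher members besides SREBF2 were GRAMD1B (0.20), which moves cholesterol from the plasma membrane to the ER in mammals, and an ABCG2 transporter (0.20). The lower members included CAV3 and a second ABCG2 transporter (-0.19), and 1 lower call was left in the list without *apob-M* library 3 or without *apob-M* library 4. Of the transcripts that the study lists under its term for cholesterol biosynthesis, 2 of 29 were higher (6.90%) and 2 were lower (6.90%). These shares are under or near those of all transcripts, with dd_Smed_v6_4422_0_1 the largest at 0.68 ± 0.04, adjusted p = 5.7e-10. The lower members numbered 4 without control library 1 and 1 without control library 2 or *apob-M* library 3. Under the term for cholesterol efflux, 3 of 22 were higher (13.6%) and 6 were lower (27.3%), with 5 higher without control library 1. The 6 lower members include *apob-1* and *apob-2* themselves and dd_Smed_v6_4411_0_1, which carries the terms for cholesterol efflux and phospholipid transport and fell from 14.9–29.6 CPM to 7.29–7.68 CPM (-1.47 ± 0.16, adjusted p = 2.0e-06).

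Storage and breakdown genes of neutral lipid showed no common direction. Of 16 transcripts tested, 3 were higher (18.8%) and 2 were lower (12.5%), with a median of 0.00. A further 2 members did not pass the filter on abundance. In either direction, 22.5% of tested transcripts with a human hit were called, and 15.3% of all transcripts. PLB1 (dd_Smed_v6_2690_0_1), a phospholipase of the brush border in mammals, stood out at between 76.3 and 88.8 CPM (median 81.3) in control libraries and 189, 209, 216 and 189 CPM in *apob-M*, a rise of 2.44-fold (1.29 ± 0.07, adjusted p = 1.1e-10). Sterol O-acyltransferase (SOAT1, dd_Smed_v6_2567_0_1), which esterifies cholesterol for storage, rose by 0.26 ± 0.05 (adjusted p = 9.4e-04). The lysosomal phospholipase PLA2G15 had 2 transcripts that fell, dd_Smed_v6_3058_0_1 (-0.39) and dd_Smed_v6_7730_0_1 (-0.31). Under the study's term for triglyceride breakdown, 5 of 24 were higher (20.8%) and 5 were lower (20.8%), again with *apob-1* and *apob-2* among the lower ones. The higher calls under that term numbered 2 to 5 over the alternatives, 2 without *apob-M* library 1 and 3 without any other *apob-M* library or any of control libraries 3 to 6. Under the term for triglyceride synthesis, 4 of 13 were higher (30.8%) and 0 were lower (0%). The higher ones were the 2 ACACA transcripts, dd_Smed_v6_9544_0_1 (0.37) and the ether-lipid cleaving enzyme AGMO (0.21). Under the term for triglyceride storage, 2 of 9 were higher (22.2%) and 0 were lower (0%). They were PRKAG3 (0.18), a regulatory subunit of AMP-activated kinase, and dd_Smed_v6_2538_0_1 (0.14), whose calls were lost under 8 and 4 of the 21 alternatives, and 1 call was left without *apob-M* library 2 or any of control libraries 3 to 6. A transcript under that storage term, dd_Smed_v6_154_0_1, was among the most abundant of the lipid genes at 1360–1454 CPM in control libraries and 1414–1543 CPM in *apob-M*, and did not pass (0.09 ± 0.03, adjusted p = 0.09).

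Enzymes of phospholipid and sphingolipid metabolism were called in 1 direction. Among the 1641 tested transcripts with a human hit, 229 were higher and 140 were lower. Of 18 phospholipid and sphingolipid transcripts tested, 5 were higher (27.8%) and 0 were lower (0%), with 1 lower without *apob-M* library 3. The higher ones were ETNPPL (0.44 ± 0.06, adjusted p = 5.4e-05), which breaks down phosphoethanolamine, CEPT1 (0.36 ± 0.04, adjusted p = 9.1e-06), which completes phosphatidylcholine and phosphatidylethanolamine synthesis, AGMO, the ceramidase ASAH2 (0.19) and the acyltransferase MBOAT2 (0.17). In fatty acid oxidation and the peroxisome, of 12 transcripts tested, 3 were higher (25%) and 0 were lower (0%). They were HAO1 (0.52 ± 0.08, adjusted p = 8.5e-05), a peroxisomal oxidase, catalase (0.25 ± 0.08, adjusted p = 0.045) and ACADVL (0.16 ± 0.04, adjusted p = 0.011), the first enzyme of mitochondrial oxidation of very long chains. The median over each of these lists was 0.02 and 0.02, so most members stayed near control. Catalase lost its call under 16 of the 21 alternative analyses, and its *apob-M* library 4 fell inside the control range. Under the term for phospholipid transport, 2 of 20 were higher (10%) and 5 were lower (25%), the higher ones being *ldlr-1* and *mttp*, and 3 were lower without *apob-M* library 3.

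**Figure D3:**
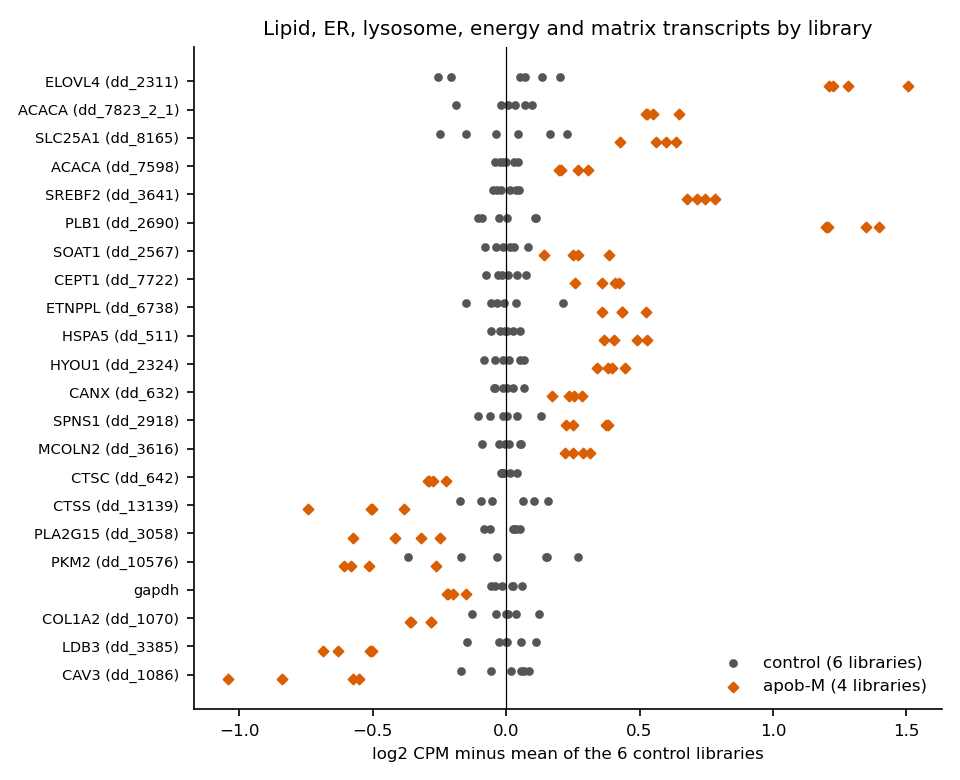
Log2 CPM minus the mean of the 6 control libraries (horizontal axis) for 22 transcripts, named by best human hit, with control libraries as grey circles and *apob-M* libraries as orange diamonds. ELOVL4 and PLB1 lie more than 1 log2 unit above control in every *apob-M* library, HSPA5 and HYOU1 lie between 0.34 and 0.53 above it, and PKM2 overlaps the control range.

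Several chaperones of the ER rose by moderate amounts. Of 22 transcripts tested, 8 were higher (36.4%) and 0 were lower (0%), and the list median was 0.09, with 0.05 to 0.13 in single *apob-M* libraries. HSPA5 (dd_Smed_v6_511_0_1), the main Hsp70 chaperone of the ER lumen and a standard marker of the unfolded protein response, lay between 409 and 440.2 CPM (median 425) in control libraries and at 563, 548, 597 and 612 CPM in *apob-M* (0.45 ± 0.04, adjusted p = 7.8e-08). HYOU1 (dd_Smed_v6_2324_0_1), its nucleotide exchange factor, rose from 85.6–94.9 CPM to 115–123 CPM (0.39 ± 0.04, adjusted p = 1.2e-06), and calnexin (CANX, dd_Smed_v6_632_0_1), which folds glycoproteins, from 385–417 CPM to 448–485 CPM (0.24 ± 0.04, adjusted p = 1.4e-04). DNAJC3 (0.24), calreticulin (0.24), the glucosidase MOGS (0.18), the disulphide isomerase PDIA6 (0.17) and CALU (0.13) completed the 8. Of the 22 fold changes 15 were positive and the most negative was -0.27, and 1 or 2 members were called lower under 6 of the 21 alternatives, among them the analyses without control library 1 (2 members) and without control library 4 (1 member). In ER to Golgi trafficking, of 24 transcripts tested, 2 were higher (8.33%) and 2 were lower (8.33%), the higher ones being the ARF1 and TMEM41A hits given above and the lower ones RNP24 (-0.28) and RAB1A (-0.31 ± 0.10, adjusted p = 0.035), which lost its call under 11 of 21 alternative analyses. The list median was -0.03, and both shares lie near the 7.05% and 8.24% of all transcripts. Both ER lists hold only transcripts with a human hit, and of 1641 such transcripts tested, 229 were higher and 140 were lower. The lower calls numbered 0 to 3 over the alternatives, 0 without control library 3 or 4 or *apob-M* library 3 and 1 without control library 2, 5 or 6 or *apob-M* library 1 or 4.

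Lysosomal transcripts moved in both directions. Of the 1641 tested transcripts with a human hit, 229 were higher and 140 were lower. Of 38 lysosomal transcripts tested, 11 were higher (28.9%) and 5 were lower (13.2%), with 1 further member under the abundance filter. The higher calls numbered 7 without *apob-M* library 3 and 6 by the exact test. The higher ones included transporters and channels of the lysosomal membrane: cystinosin (CTNS, 0.34), 2 transcripts of the lysolipid transporter SPNS1 (0.31 ± 0.05, adjusted p = 2.0e-04 for dd_Smed_v6_2918_0_1 and 0.27 for dd_Smed_v6_4119_0_1), the channels MCOLN2 (0.27 ± 0.04, adjusted p = 1.1e-04) and TPCN2 (0.17), MFSD8 (0.19) and SLC17A5 (0.17). Acid alpha-glucosidase (GAA) was higher by 0.25 and cathepsin F by 0.19. All 5 lower members were peptidases: cathepsin S (dd_Smed_v6_13139_0_1, -0.54 ± 0.09, adjusted p = 3.6e-04), cathepsin C (dd_Smed_v6_642_0_1, -0.27 ± 0.03, adjusted p = 5.1e-06), 2 transcripts with cathepsin V as hit (-0.21 and -0.44) and cathepsin A (-0.20). For cathepsin C the 4 *apob-M* libraries lay at 299.7, 289.8, 287 and 287 CPM and the control libraries between 346 and 361 CPM (median 348). Cathepsins of 1 family can share reads, because the authors counted reads that map to several transcripts.

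**Figure D4:**
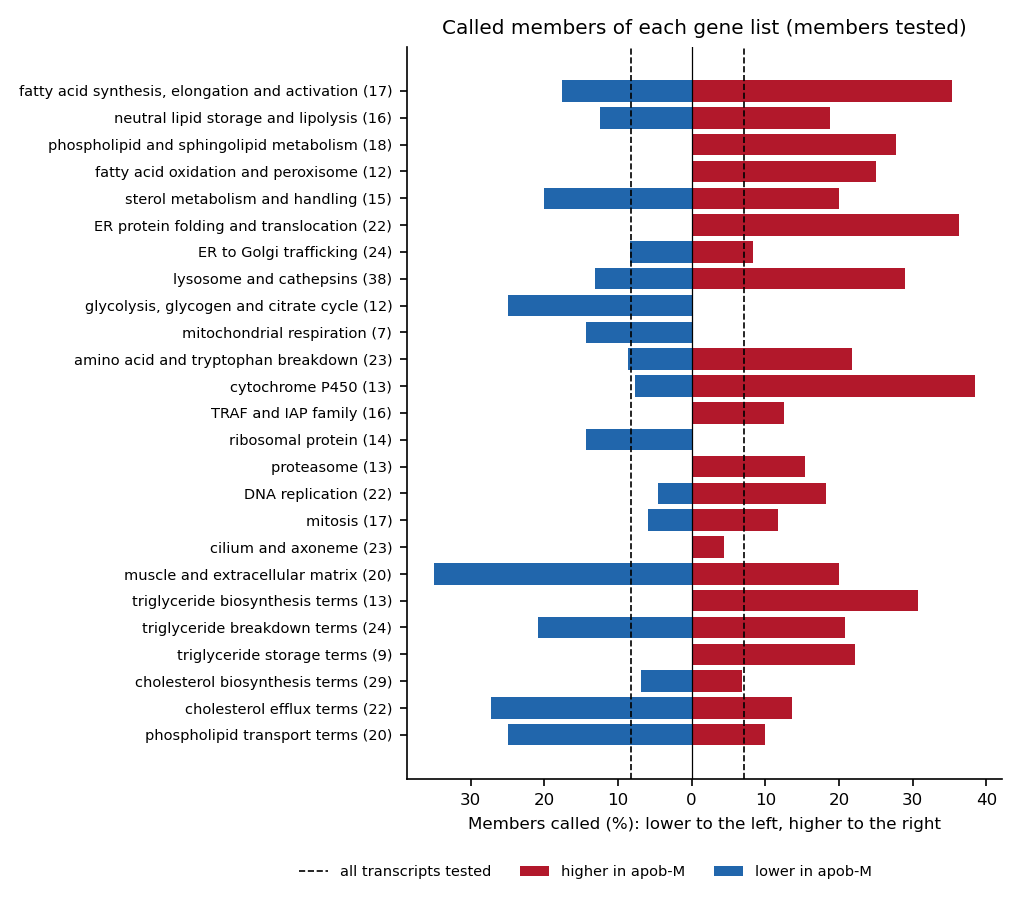
Percent of the tested members of each gene list called higher (red, to the right) or lower (blue, to the left) in *apob-M*. The number tested is in parentheses, and dashed lines mark the 8.24% and 7.05% of all transcripts. The 19 lists built from names hold only transcripts with a human hit. Of 1641 such transcripts tested, 229 were higher and 140 were lower, for which no line is drawn. The list labelled TRAF and IAP family holds only TRAF hits. ER folding (36.4% higher), cytochrome P450 (38.5%) and fatty acid synthesis (35.3%) reach furthest to the right, and muscle and extracellular matrix (35% lower) furthest to the left.

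Of tested transcripts with a human hit, 22.5% were called in either direction. In glycolysis, glycogen use and the citrate cycle, of 12 transcripts tested, 0 were higher (0%) and 3 were lower (25%). The lower ones were PKM2 (dd_Smed_v6_10576_0_1, -0.51 ± 0.12, adjusted p = 0.0055), a pyruvate kinase, DLAT (-0.19 ± 0.04, adjusted p = 0.0048), a subunit of pyruvate dehydrogenase, and phosphoglucomutase PGM2 (-0.14 ± 0.04, adjusted p = 0.016). For PKM2 and DLAT the groups overlapped. The glycolytic *gapdh*, often used as a reference transcript, lay between 2708 and 2929 CPM (median 2823) in control libraries and at 2414, 2419, 2536 and 2451 CPM in *apob-M*, a small fall without overlap (-0.20 ± 0.03, adjusted p = 5.9e-05). The other reference, the translation factor *ef-2*, was at 3754 ± 106 CPM (SD, n = 6) and 3822 ± 91.0 CPM (SD, n = 4), and did not pass (0.03 ± 0.02, adjusted p = 0.51). The list for mitochondrial respiration held few subunits of the respiratory chain and several assembly factors. Of its 7 transcripts tested, 0 were higher (0%) and 1 was lower (14.3%), the lower one being NDUFB9 (-0.27 ± 0.06, adjusted p = 0.0045). Among ribosomal proteins, of 14 transcripts tested, 0 were higher (0%) and 2 were lower (14.3%): RPL34 (-0.28 ± 0.07, adjusted p = 0.012) and RPL30 (-0.29 ± 0.06, adjusted p = 0.0038), both overlapping between groups. That list varied at least as much among control libraries, whose medians ran from -0.22 to 0.14, as among *apob-M* libraries, at -0.23 to -0.07, and the ranges overlapped. Without control library 1, 5 of its members were lower.

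Amino acid breakdown and detoxification genes contained some of the clearer single rises. Among the 1641 tested transcripts with a human hit, 229 were higher and 140 were lower. In the amino acid list, of 23 transcripts tested, 5 were higher (21.7%) and 2 were lower (8.70%). The higher calls numbered 3 without control library 1, 3 or 5 or *apob-M* library 1 or 4. ACMSD (dd_Smed_v6_8766_0_1), which diverts tryptophan breakdown away from NAD synthesis, lay between 21.8 and 26.7 CPM (median 25.5) in control libraries and at 36.8, 44.1, 42.5 and 41.2 CPM in *apob-M* (0.73 ± 0.07, adjusted p = 2.7e-07), and HAAO, an enzyme just upstream of it, rose by 0.24 ± 0.05, adjusted p = 0.0012. Cystathionine gamma-lyase (CTH), of cysteine synthesis, fell (-0.18 ± 0.04, adjusted p = 0.0079). Among cytochrome P450 enzymes, which oxidise fatty acids, sterols and foreign compounds, of 13 transcripts tested, 5 were higher (38.5%) and 1 was lower (7.69%). CYP2C18 (dd_Smed_v6_10682_0_1) rose from 18.9–24.4 CPM to 32.5–38.0 CPM (0.75 ± 0.06, adjusted p = 1.1e-07), CYP2B6 (dd_Smed_v6_2351_0_1) from 178–185 CPM to 279.9–299 CPM (0.67 ± 0.03, adjusted p = 1.0e-10), and a CYP3A transcript (dd_Smed_v6_5902_0_1) from 51.9–60.1 CPM to 69.0–73.9 CPM (0.32 ± 0.04, adjusted p = 5.0e-05), while another CYP3A transcript, dd_Smed_v6_9863_0_1, was lower (-0.22), a call lost without control library 2 or *apob-M* library 1 or 3. The list for TRAF and IAP proteins held only transcripts with a TRAF hit, adaptors of death and immune signalling. Of its 16 transcripts tested, 2 were higher (12.5%) and 0 were lower (0%). The higher ones were a TRAF3 hit (0.42 ± 0.11, adjusted p = 0.011) and a TRAF2 hit (0.35 ± 0.07, adjusted p = 9.2e-04). Of the proteasome list, 2 of 13 were higher (15.4%) and 0 were lower (0%), and 12 of its 13 fold changes were positive. The calls were PSMB5 (0.14), lost under 17 of the 21 alternatives, and PSMB6 (0.20), lost under 1, and 1 call was left without control library 1, 3 or 4 or *apob-M* library 1, 3 or 4.

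Muscle and extracellular matrix transcripts held the largest share of lower calls of the lists. Of 20 transcripts tested, 4 were higher (20%) and 7 were lower (35%). Among the 1641 tested transcripts with a human hit, 229 were higher and 140 were lower. The fibrillar collagen chain COL1A2 (dd_Smed_v6_1070_0_1) lay between 910.0 and 1082 CPM (median 995) in control libraries and at 776, 818, 818 and 775 CPM in *apob-M* (-0.32 ± 0.04, adjusted p = 3.7e-05). LDB3, a protein of the muscle Z-disc, had 2 lower transcripts, dd_Smed_v6_3385_0_1 (-0.58 ± 0.07, adjusted p = 1.9e-05) and dd_Smed_v6_10318_0_1 (-0.44), and perlecan (HSPG2, -0.20), TPM3 (-0.17), PDLIM7 (-0.13) and an ACTN2 transcript, dd_Smed_v6_10174_0_1 (-0.32), were lower by less. Against these, a transcript with the basement membrane chain LAMA1 as hit (dd_Smed_v6_7924_0_1) lay between 93.3 and 131 CPM (median 108) in control libraries and at 223, 235, 227 and 193 CPM in *apob-M*, a rise of 1.97-fold (0.98 ± 0.08, adjusted p = 1.3e-07). A second ACTN2 transcript, dd_Smed_v6_7964_0_1, was higher (0.28). The higher calls numbered 2 without any of *apob-M* libraries 1, 2 and 4 or control libraries 3 to 5. The list median was -0.03, beside -0.0025 over all transcripts.

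Of 9 markers of cell types, 4 rose, 3 fell and 2 did not pass the test. Over all transcripts tested, 15.3% were called in either direction. Of the neoblast markers, *piwi-1* was at 404 ± 6.83 CPM (SD, n = 6) in control and 408 ± 22.3 CPM (SD, n = 4) in *apob-M* and did not pass (0.02 ± 0.03, adjusted p = 0.8), while *tgs-1*, which marks a neoblast subset, lay between 5.19 and 8.39 CPM (median 6.68) and at 12.5, 10.2, 9.83 and 9.66 CPM (0.68 ± 0.11, adjusted p = 2.7e-04). The epidermal progenitor marker *prog-1* fell (-0.22 ± 0.06, adjusted p = 0.02). Of the intestine markers, *slc22a6* rose (0.25 ± 0.04, adjusted p = 3.5e-04), *nkx2.2* rose (0.12 ± 0.04, adjusted p = 0.045) with overlapping groups, *npc2* fell (-0.40 ± 0.08, adjusted p = 0.0019), and *ctsla* did not pass (0.00 ± 0.05, adjusted p = 0.99). The neuronal *ChAT* rose (0.22 ± 0.06, adjusted p = 0.012), again with overlap, and the pharynx *laminin* fell from 53.8–76.1 CPM to 36.1–48.1 CPM (-0.44 ± 0.09, adjusted p = 0.0023). None of the 9 markers was at 0 in any library, and the largest change was that of *tgs-1*. The calls of *prog-1*, *nkx2.2* and *ChAT* were lost under 4, 12 and 1 of the alternative analyses.

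Called members of the lists for cell division had log2 fold changes from -0.26 to 0.24. In either direction, 15.3% of all transcripts were called, and 22.5% of tested transcripts with a human hit. In DNA replication, of 22 transcripts tested, 4 were higher (18.2%) and 1 was lower (4.55%). RRM2 (0.24 ± 0.04, adjusted p = 4.0e-04), MCM7 (0.20 ± 0.05, adjusted p = 0.0087), MCM4 (0.18) and MCM2 (0.15) were higher, and thymidylate synthase (TYMS, -0.18 ± 0.04, adjusted p = 0.0038) was lower. In mitosis, of 17 transcripts tested, 2 were higher (11.8%) and 1 was lower (5.88%), with CCNB2 (0.22 ± 0.06, adjusted p = 0.021) and PLK1 (0.15 ± 0.05, adjusted p = 0.031) higher and AURKC (-0.26 ± 0.07, adjusted p = 0.012) lower, and 2 members under the abundance filter. In the cilium list, of 23 transcripts tested, 1 was higher (4.35%) and 0 were lower (0%), the 1 being the dynein DNAH10 (0.49 ± 0.13, adjusted p = 0.013), whose groups overlapped. The calls of CCNB2, PLK1, AURKC, MCM7 and DNAH10 were each lost under at least 1 alternative analysis. Over the 21 alternatives the higher members numbered 1 to 6 for DNA replication (2 without *apob-M* library 4) and 0 to 2 for mitosis (0 without *apob-M* library 1 or 4, and 1 without *apob-M* library 3 or control library 1, 5 or 6). The lower call in mitosis was lost without *apob-M* library 3, and the call in the cilium list without *apob-M* library 1.

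The mild and severe animals were then compared directly for these transcripts. Of the 103 transcripts that the naming rule gave, 30 differed between *apob-S* and *apob-M*, as did 12.0% of all transcripts tested. Of the 103, 92 were called against control, and the same *apob-M* libraries enter both tests, so nothing is read from these shares. *mttp* was higher again in *apob-S* (149.5 ± 3.16 CPM, SD, n = 4; log2 difference from *apob-M* 0.35 ± 0.04, adjusted p = 6.5e-06), as were *ldlr-1* (0.50 ± 0.06, adjusted p = 8.8e-06), dd_Smed_v6_816_0_1 (0.46 ± 0.07, adjusted p = 1.5e-04) and dd_Smed_v6_585_0_1 (1.11 ± 0.12, adjusted p = 8.3e-06). dd_Smed_v6_3606_0_1 was also higher in *apob-S* than in *apob-M*, at 89.7–205 CPM (3.19 ± 0.24, adjusted p = 1.8e-07).

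Other changes did not differ between the groups past the threshold, or were larger in *apob-M*. ELOVL4 (dd_Smed_v6_2311_0_1) differed between them by -0.12 ± 0.09, adjusted p = 0.47, PLB1 by -0.17 ± 0.07, adjusted p = 0.14, SREBF2 by 0.03 ± 0.04, adjusted p = 0.72, TYMP by 0.07 ± 0.05, adjusted p = 0.43 and HSPA5 by 0.12 ± 0.04, adjusted p = 0.051. The ARF1 hit (dd_Smed_v6_3383_0_1) was less abundant in severe than in mild animals (-0.60 ± 0.10, adjusted p = 3.4e-04), and CYP2C18 lay nearer to control in *apob-S*, at 22.5–26.2 CPM (-0.57 ± 0.07, adjusted p = 2.0e-05). LDB3 (dd_Smed_v6_3385_0_1) was also nearer to control in *apob-S* (0.26 ± 0.08, adjusted p = 0.039). A pair of scarce transcripts were lower in *apob-M* than in either other group: dd_Smed_v6_2184_0_1 at 2.64–12.6 CPM in *apob-S* (4.74 ± 0.74, adjusted p = 2.5e-04) and dd_Smed_v6_882_0_1, which went from 6.18–16.7 CPM in control to 1.74–3.63 CPM in *apob-M* (-1.86 ± 0.28, adjusted p = 1.2e-04) and stood at 7.97–8.74 CPM in *apob-S* (1.71 ± 0.30, adjusted p = 7.6e-04). The transcripts given here as nearer to control in *apob-S* were named for their *apob-M* values, which also enter this test. That choice favours such differences, so they are a description. Transcripts further below control in *apob-S* than in *apob-M* were CAV3 (-0.81 ± 0.11, adjusted p = 6.3e-05), COL1A2 (-0.35 ± 0.05, adjusted p = 6.8e-05), *laminin* (-0.53 ± 0.10, adjusted p = 0.0014) and *prog-1* (-0.53 ± 0.07, adjusted p = 4.3e-05).

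**Figure D5:**
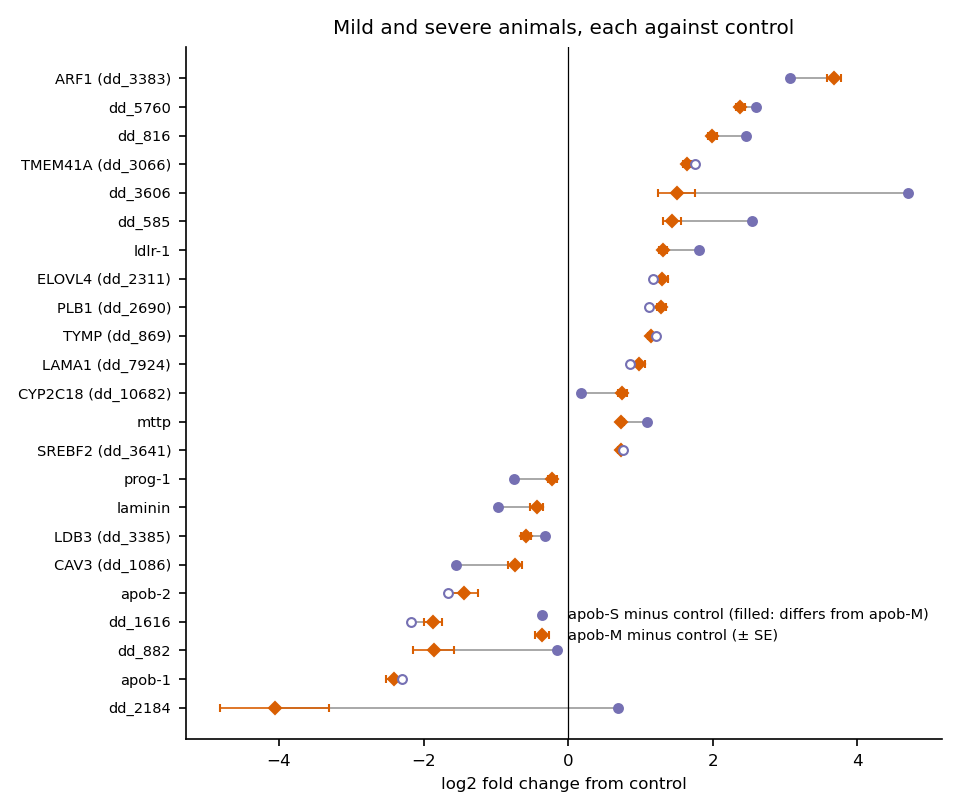
Log2 fold change from control (horizontal axis) of 23 transcripts in *apob-M* (orange diamonds, bars are SE) and *apob-S* (purple circles, filled where the 2 knockdown groups differed past the threshold). The circles of dd_Smed_v6_3606_0_1 and dd_Smed_v6_585_0_1 lie well beyond the diamonds, those of ELOVL4, PLB1, SREBF2 and *apob-1* lie on or near them, and those of dd_Smed_v6_882_0_1 (-0.15) and dd_Smed_v6_2184_0_1 (0.68) lie far nearer to 0 than the diamonds.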

How the data were processed

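RNA-seq was run on 14 libraries of whole planarians (6 control, 4 *apob-M*, 4 *apob-S*). Per the labels and the study's methods, the authors trimmed reads with BBDuk, mapped them with Bowtie2 (2.3.1) in local mode, reporting all alignments, to the dd_Smed_v6 transcriptome, and deposited whole-number counts per transcript from featureCounts of Subread (1.6.3), including reads that map to several transcripts, so similar transcripts can share counts. A second deposited table of the authors' fold changes and FDR values was not used. Here, a transcript was kept if 4 or more libraries reached 1 CPM (18436 of 28069). edgeR (4.0.16, R 4.3.3) TMM scaling and quasi-likelihood tests were fitted to all 14 libraries with group as the only term, with p-values adjusted by Benjamini-Hochberg. Fold changes are on the log2 scale, ± SE. On simulated counts for this comparison over 18436 transcripts, the test recovered 76.1% of 1.5-fold, 94.0% of 2-fold and 100% of 4-fold changes. Of the calls there, 8.16% were false. The median called change in the data was 1.20-fold, smaller than any change simulated. The simulation also had few changed transcripts and no library with an uneven level like that of dd_Smed_v6_4_1_1. These shares therefore do not carry over to most calls.

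The members, gene lists and naming rule were chosen with earlier results of these data known. The rule names the study's target, partner, reference and marker transcripts, the 8 largest and 8 most negative fold changes overall and among transcripts with a human hit (e-value at most 1e-10; called, mean log2 CPM of at least 2, groups not overlapping), and the 3 members of each list with the smallest p. Other list members are named because they passed, after their values were seen. Of 3100 annotated transcripts held, 1668 had such a hit. Some of these annotations come from the study's own lists of changed transcripts, so lists built from hits favour called transcripts. The 19 alternative analyses, and 2 more chosen after seeing the data, changed the test (edgeR exact test, DESeq2 1.42.0, limma-voom 3.58.1), the scaling, the filter, the libraries in the fit or the covariates. Totals of 17476691 to 23039326 counts in the 10 libraries compared (16839133 to 22077694 in *apob-S*) limit precision for scarce transcripts. Replicate libraries differed by more than counting noise (chi-square per degree of freedom 2.95 to 139). They are separate pools of animals, with no further origin stated, so p-values measure the spread between pools.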

Additional observations from a re-analysis of the deposited data

Results flagged for a closer look

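Of 190 sets of control or *apob-M* libraries tested, 1 for each group and each described transcript of the naming rule, plus total counts and TMM factors, 20 (10.5%) held a library that stood apart from the others of its group, where chance gives about 1 in 20. *apob-M* library 3 had a TMM factor of 0.919, against 1.03 to 1.04 in the other 3, beside its high level of dd_Smed_v6_4_1_1, and was the highest of its group for PSMB5 (52.2 CPM).

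*apob-M* library 1 was the highest of its group for dd_Smed_v6_5760_0_1 (49.4 CPM), AURKC (21.8 CPM) and RPL34 (285 CPM), and the lowest for *nkx2.2* (119 CPM) and *laminin* (36.1 CPM). *apob-M* library 2 was the highest for dd_Smed_v6_356_0_1 (68.9 CPM) and dd_Smed_v6_851_0_1 (61.3 CPM), and the lowest for dd_Smed_v6_8670_0_1 (96.0 CPM), dd_Smed_v6_4422_0_1 (53.0 CPM), HAAO (62.7 CPM) and CCNB2 (20.9 CPM). *apob-M* library 4 was the highest for *ldlr-2* (134 CPM) and the lowest for *npc2* (348 CPM).

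Among control libraries, library 2 was the lowest for dd_Smed_v6_18454_0_1 (0.702 CPM), CCNB2 (16.6 CPM) and dd_Smed_v6_1616_0_1 (14.7 CPM), and the highest for RRM2 (38.8 CPM). Control library 3 was the lowest for DLAT (136 CPM). For dd_Smed_v6_5760_0_1, dd_Smed_v6_356_0_1, dd_Smed_v6_851_0_1, dd_Smed_v6_8670_0_1 and dd_Smed_v6_1616_0_1 the control and *apob-M* libraries did not overlap, which the naming rule required of them. Without *apob-M* library 4, *ldlr-2* was no longer called.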

How the results depend on the processing

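Scaling by library size alone gave 864 transcripts higher in *apob-M* and 931 lower, against 1299 and 1520. An alternative chosen after seeing the data, which left out the 4 libraries highest in dd_Smed_v6_4_1_1 (control 1 and 2, *apob-M* 3 and *apob-S* 2), gave 826 higher and 978 lower from fewer libraries. The other tests, scalings and filters gave 955 to 1394 higher and 1147 to 1626 lower, and no called transcript changed sign under any of the 21 alternatives. Leaving out 1 replicate gave 1053 to 1270 higher and 1064 to 1645 lower. Without *apob-M* replicate 3, lower calls went from 1520 to 1064. *apob-1* and *apob-2* were called under every alternative, at log2 fold changes of -2.47 to -2.33 for *apob-1* and -1.58 to -1.32 for *apob-2*, both ranges set by leaving out 1 replicate. Of 92 named and called transcripts, 67 were called under every alternative and 25 were not under at least 1, among them *gapdh*, *vldlr-1* and TYMS by the exact test. The named transcripts that differed between *apob-S* and *apob-M* numbered 21 to 35, and 24 to 30 with 1 replicate left out. With 10 libraries alone the direct test was not run, since it needs *apob-S*. Control and *apob-M* replicates share numbers but no stated origin, and deviations of the 4 same-numbered pairs correlated at -0.20 to 0.06. With the replicate block, 955 transcripts were higher and 1147 lower, and the log2 fold changes of *apob-1* and *apob-2* were -2.46 and -1.51. Scarce transcripts are limited by depth: 2.86% of the 4609 least abundant were called.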
